A study of Mus musculus with 8 samples.

Results

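The mitochondrial integrated stress response was followed through 10 genes in muscle stem cells (MuSCs) of mice on a diet free of vitamin A (VA). They were the transcription factor genes Atf4, Atf5 and Ddit3, the pseudokinase gene Trib3, the glutathione-degrading enzyme gene Chac1, the amino acid and folate enzyme genes Asns, Psat1, Phgdh and Mthfd2, and the secreted factor gene Gdf15. The genes were chosen by name as a set known to respond to mitochondrial and amino acid stress. The choice rule used no measured values, but earlier results of these data were known when it was made. All 10 genes were among the 17997 genes with enough counts to be tested.

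In the integrated stress response, kinases that sense different stresses phosphorylate the translation factor eIF2 alpha, which slows protein synthesis while upstream reading frames let ATF4 protein be made more efficiently. Trouble inside mitochondria reaches this pathway through the protease OMA1, its substrate DELE1 and the heme-regulated kinase HRI (gene Eif2ak1). ATF4 then binds C/EBP-ATF response elements (CAREs) in genes for amino acid synthesis, transport and stress signalling. Because ATF4 is controlled mainly in translation, the level of Atf4 mRNA does not measure the activity of the factor, and its target mRNAs are the usual readout.

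The cells came from young male Pax7CreERT2-Rosa26nTnG mice, in which tamoxifen turns on a nuclear green fluorescent protein (nGFP) in cells that express Pax7, the defining transcription factor of MuSCs. Both groups carried these alleles. For 8 weeks 3 mice received a custom VA-free diet while 2 control mice stayed on normal chow, and the amino acid content of either diet is not given in the sources used here. nGFP+ cells of the gastrocnemius and quadriceps were sorted by FACS into Trizol, and RNA was copied into full-length cDNA with the SMART-Seq v4 kit and made into Nextera XT libraries. The RNA of each mouse had been divided at the spin column into technical replicates A and B. Each of the 8 libraries holds 44831232 to 88650428 estimated counts. The VA-free libraries are 1B from mouse 1, 2A from mouse 2 and the pair 3A and 3B from mouse 3, and the control mice each gave a pair, 1A with 1B and 2A with 2B. Libraries of the same mouse were summed for tests, so n is 3 VA-free mice and 2 control mice, and the spread of the controls rests on a single pair of animals.

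Control 2A stood apart from control 2B, its technical partner. Over the 17677 genes compared the chi-square of their counts per degree of freedom was 548, beside 48.3 for control 1A and 1B and 10.1 for VA-free 3A and 3B. Diet differences of the 10 genes and counts of the related lists that rest on control 2A are given with and without it.

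Marker genes of MuSCs were well detected in all libraries, with a summed level of 4965 to 5773 CPM (counts scaled to the same library size) on the VA-free diet and 2190 to 3441 CPM on the control diet, and 7 of the 8 rose on the VA-free diet by edgeR. Most markers of other cells that passed the test moved the other way. The 8 endothelial markers all fell, from summed levels of 991 to 2207 CPM in control libraries to 216 to 279 CPM in VA-free libraries, and 5 of 7 fibro-adipogenic, 6 of 6 Schwann, 4 of 5 tenocyte, 4 of 7 pericyte and smooth muscle, 3 of 9 macrophage, 3 of 8 myofiber and 4 of 5 erythroid markers fell too, while 1 pericyte and smooth muscle marker rose. Of these lists, Mrc1 of macrophages and Cdh19 of Schwann cells were at 0 in some libraries, no other marker was at 0 in any, and the summed levels of these lists did not overlap between the diets. Immediate early and dissociation genes summed to 33463 to 37303 CPM on the VA-free diet and to 25529 to 37819 CPM on the control diet. The part of these other cells in the differences described below was not tested, and in such bulk RNA a lower number of cells of some type cannot be told apart from less of the RNA per cell.

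Promoter sequences are shown first for the 3 genes of the set that carry a CARE core, because Asns and Trib3 are the members with the greatest falls. Chac1, also a known ATF4 target, did not pass the test. It was scarce, at mean levels of 1.08 CPM (VA-free) and 0.914 CPM (control), and its log2 fold change of 0.24 was uncertain (SE 0.60). The core was searched as TGATGNAA on both strands, from 250 bases before to 50 bases after the transcription start, in the RefSeq windows of build GRCm38.p6. In the lines that follow, each on its gene's own strand, capitals mark the match.

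Asns (chr6:7693160-7693459, minus strand): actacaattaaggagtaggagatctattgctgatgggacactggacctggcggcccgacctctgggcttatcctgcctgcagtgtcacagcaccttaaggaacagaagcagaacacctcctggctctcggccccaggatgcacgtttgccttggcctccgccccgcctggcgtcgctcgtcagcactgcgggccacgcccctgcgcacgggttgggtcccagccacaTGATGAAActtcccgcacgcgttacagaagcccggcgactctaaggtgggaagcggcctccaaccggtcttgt
Trib3 (chr2:152344011-152344310, minus strand): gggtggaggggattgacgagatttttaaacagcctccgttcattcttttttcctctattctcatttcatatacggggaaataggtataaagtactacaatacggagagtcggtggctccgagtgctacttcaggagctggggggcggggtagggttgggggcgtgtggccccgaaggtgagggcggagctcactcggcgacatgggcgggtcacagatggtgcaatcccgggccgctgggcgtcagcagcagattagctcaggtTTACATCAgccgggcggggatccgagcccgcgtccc
Chac1 (chr2:119350992-119351291, plus strand): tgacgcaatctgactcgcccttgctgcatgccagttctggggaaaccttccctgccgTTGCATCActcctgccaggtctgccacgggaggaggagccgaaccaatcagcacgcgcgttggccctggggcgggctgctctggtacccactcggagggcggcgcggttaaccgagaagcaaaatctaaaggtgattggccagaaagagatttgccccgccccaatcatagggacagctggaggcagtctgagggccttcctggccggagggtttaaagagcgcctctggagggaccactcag

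In Asns the match lay on the gene's strand at positions -23 to -16, counted from the RefSeq start. In Trib3 it lay on the opposite strand at positions 15 to 22, after the start, and in Chac1 on the opposite strand at positions -193 to -186. The core was found in 3 of the 10 members and in 1219 of all 27025 genes with a window (4.51%). The cAMP response element palindrome TGACGTCA, a site for factors of the CREB and ATF family, was in no window of the 10 members and in 2.03% of genes. A direct repeat of AGGTCA spaced by 5 bases (DR5), the classical arrangement for retinoic acid receptors, was in 0 members and in 3 of the 32851 windows. The search allowed exact repeats only, and at so low a share its absence from the members is not informative. In GRCm38 coordinates Asns spans chr6:7675169-7693254, Trib3 chr2:152337422-152344032, Ddit3 chr10:127290774-127296288, Gdf15 chr8:70629393-70632456 and Atf4 chr15:80255184-80257541, all annotated as protein-coding. Such matches describe letters in a short window, not sites that are bound.

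Between the diets 4 of the 10 genes changed, and all 4 fell on the VA-free diet, namely Asns, Trib3, Ddit3 and Gdf15. None rose. Over all tested genes edgeR called 41.4% changed at an adjusted p below 0.05, with 22.5% lower and 18.9% higher on the VA-free diet, so the share of members called in either direction was close to the background. The median log2 fold change (VA-free over control) was -0.04 over the members and 0.003 over all tested genes, and 7 of 10 members were below 0. The libraries of the 2 diets did not overlap for Asns and Ddit3, against 41.3% of all tested genes. The count of 4 became 1 without control 2B, control mouse 1 or VA-free mouse 1, and 2 without control 1A or VA-free mouse 3. Without control 2A it was 4 with other members, since Gdf15 was no longer called and Atf4 was. It was 2 (Asns lower, Phgdh higher) when the trend of each mouse with transcript length was removed. The plot of levels by library shows every value behind these counts.

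**Figure D1:**
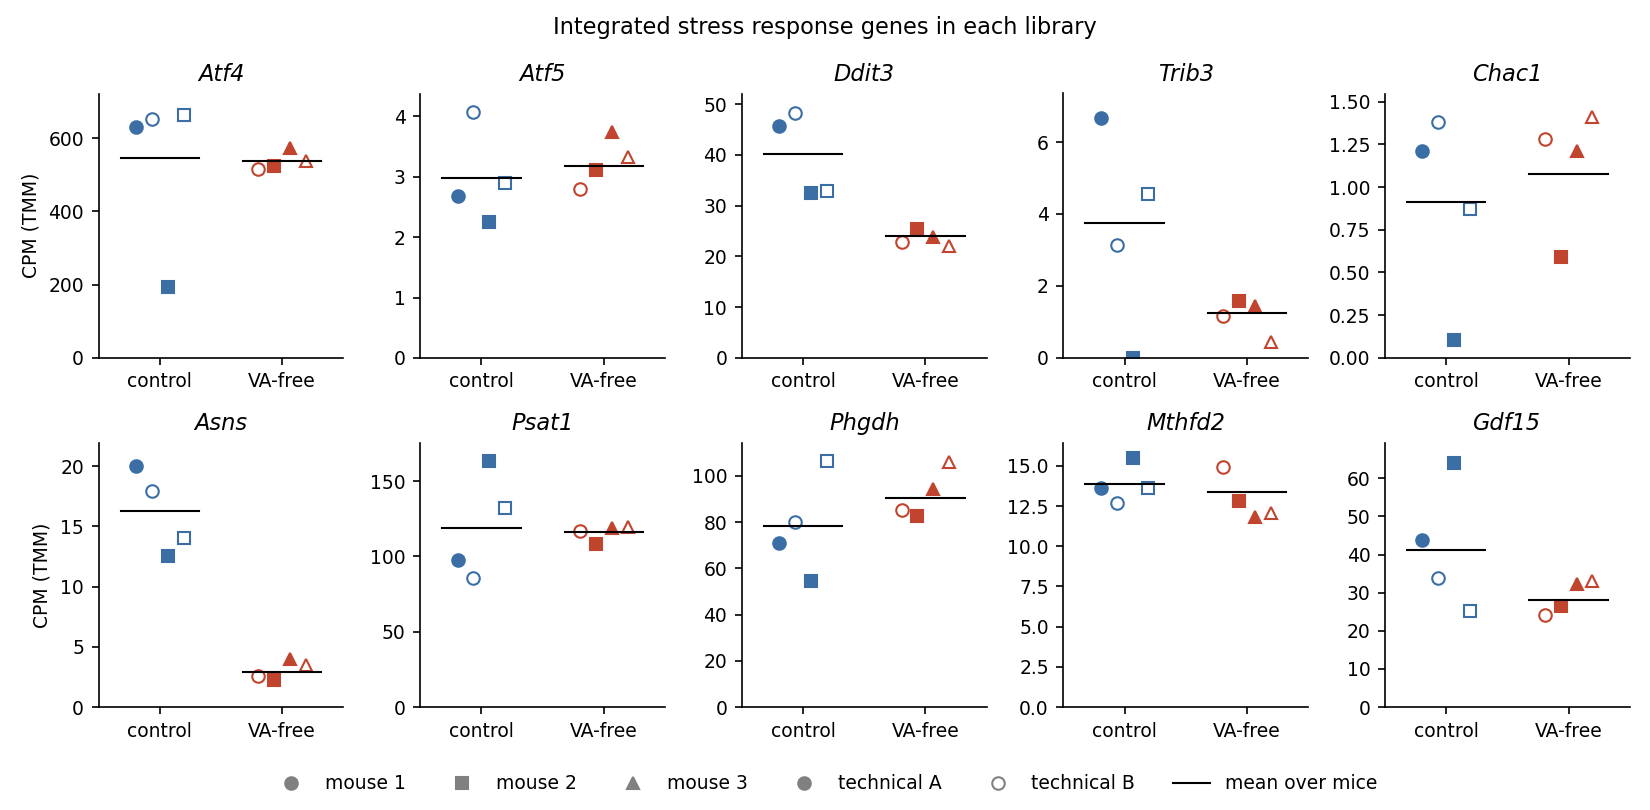
Level of each gene in CPM (normalized by TMM, linear axes from 0) in the 4 control and 4 VA-free libraries, with symbol shape for the mouse, filled symbols for technical replicate A and open ones for B, and a line at the mean over mice. Asns sits between 2.24 and 3.99 CPM in all VA-free libraries and between 12.5 and 20.02 CPM in all control libraries, whereas control 2A alone is low for Atf4 and at 0 for Trib3.

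Asns, which encodes the enzyme that makes asparagine from aspartate and glutamine and is the classical ATF4 target, had the greatest change. It was measured at 2.57 CPM in VA-free 1B, 2.24 in 2A, 3.99 in 3A and 3.48 in 3B. In the control pairs it was at 20.02 and 18.0 CPM (1A and 1B) and at 12.5 and 14.1 CPM (2A and 2B). Every control library thus lay above every VA-free one, and the technical partners of the 3 mice with a pair were close together. The mean of the VA-free mice was 2.88 ± 0.794 CPM (SD, n = 3), against 16.3 ± 4.82 CPM (SD, n = 2) in control mice, which is 5.64-fold higher. The log2 fold change was -2.50 (SE 0.30, edgeR adjusted p = 0.000983). Asns kept its direction and its side of the threshold in all 20 alternatives, with log2 fold changes of -2.77 to -1.64, and without control 2A it was -2.55 (edgeR adjusted p = 0.000863).

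Among the transcription factor genes, Atf4 was the most abundant member and did not pass the test. Its level was 515 CPM in VA-free 1B, 523 in 2A, 574 in 3A and 538 in 3B, a narrow range. In control libraries it was 632 CPM in 1A, 652 in 1B and 664 in 2B but 193 CPM in 2A. The mean was 538 ± 21.6 CPM (SD, n = 3) against 545 ± 167 CPM (SD, n = 2), with a log2 fold change of -0.02 (SE 0.19, edgeR adjusted p = 0.943). Outside control 2A, every control library was above every VA-free library, and without that library the log2 fold change was -0.31 with an edgeR adjusted p of 0.0450. Without control 2B in its place it was 0.31 (edgeR adjusted p = 0.675), so the call and the direction of Atf4 turned on which technical library of 1 control mouse was used.

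The gap within control mouse 2 was -1.77 for Atf4 as a difference in log2(CPM + 1) between 2A and 2B, and 7.62% of the 9559 genes with at least 10 CPM differed as far or further between those libraries. The same difference was -0.05 between control 1A and 1B and 0.09 between VA-free 3A and 3B. Atf4-201, the main protein-coding transcript, carried 97.2% to 99.2% of the counts of the gene in every library, control 2A included.

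Ddit3 encodes CHOP, a C/EBP family factor that drives cell death under prolonged stress. It was at 22.8 CPM in VA-free 1B, 25.5 in 2A, 23.8 in 3A and 22.1 in 3B. The control pairs had 45.7 and 48.3 CPM (1A and 1B) and 32.5 and 32.9 CPM (2A and 2B), all above the VA-free libraries. The mean was 24.0 ± 1.30 CPM (SD, n = 3) against 40.1 ± 12.0 CPM (SD, n = 2), with a log2 fold change of -0.74 (SE 0.19, edgeR adjusted p = 0.0210). Ddit3 is short, and when the trend of each mouse with transcript length was removed its log2 fold change turned to 0.26 (edgeR adjusted p = 0.321). Without control mouse 1 it was -0.40 (edgeR adjusted p = 0.0622), and the call was lost also without VA-free mouse 1 or 3 or control 2B. Exons of Ddit3 overlap Mars on the opposite strand and Gm4189, and the library kit does not mark strand, so its counts are less certain than those of genes that stand alone.

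Atf5, a close relative of Atf4 that drives the mammalian mitochondrial unfolded protein response, was scarce at 2.81 to 3.74 CPM in VA-free libraries and 2.25 to 4.08 CPM in control libraries. These ranges overlapped, and the log2 fold change was 0.10 (SE 0.29, edgeR adjusted p = 0.818). Its exons overlap Nup62 and Il4i1, which adds uncertainty to so low a count.

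Trib3 encodes a pseudokinase that is induced by ATF4 and CHOP and in turn restrains ATF4. It was at 1.16 CPM in VA-free 1B, 1.59 in 2A, 1.45 in 3A and 0.443 in 3B. In control libraries it was at 6.67 CPM in 1A, 3.13 in 1B and 4.55 in 2B, but no count was assigned in 2A, which allows a level of up to 0.0624 CPM at the depth of that library (3 counts, counting error only). Control 2B, from the same mouse, held 245 counts. The libraries of the diets overlapped through control 2A alone, and the summed levels per mouse, 0.937 to 1.60 CPM against 2.32 and 5.19 CPM, did not. The log2 fold change was -1.60 (SE 0.44, edgeR adjusted p = 0.0253). It was -1.98 without control 2A (edgeR adjusted p = 0.00365) and -1.09 without control 2B (edgeR adjusted p = 0.650). Trib3 stayed below 0 in all 20 alternatives and past the threshold in 10 of them, the call being lost also without control 1A, control mouse 1, VA-free mouse 1 or VA-free mouse 3.

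Chac1 encodes a gamma-glutamylcyclotransferase that breaks down glutathione. It was at 0.591 to 1.41 CPM in VA-free libraries and at 0.872 to 1.38 CPM in control 1A, 1B and 2B, with 0.104 CPM (5 counts) in control 2A. The groups overlapped, and the log2 fold change was 0.24 (SE 0.60, edgeR adjusted p = 0.780). Without control 2A it was -0.04 (edgeR adjusted p = 0.966). At this depth and spread a difference of the size seen for Ddit3 was not detectable for Chac1.

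**Figure D2:**
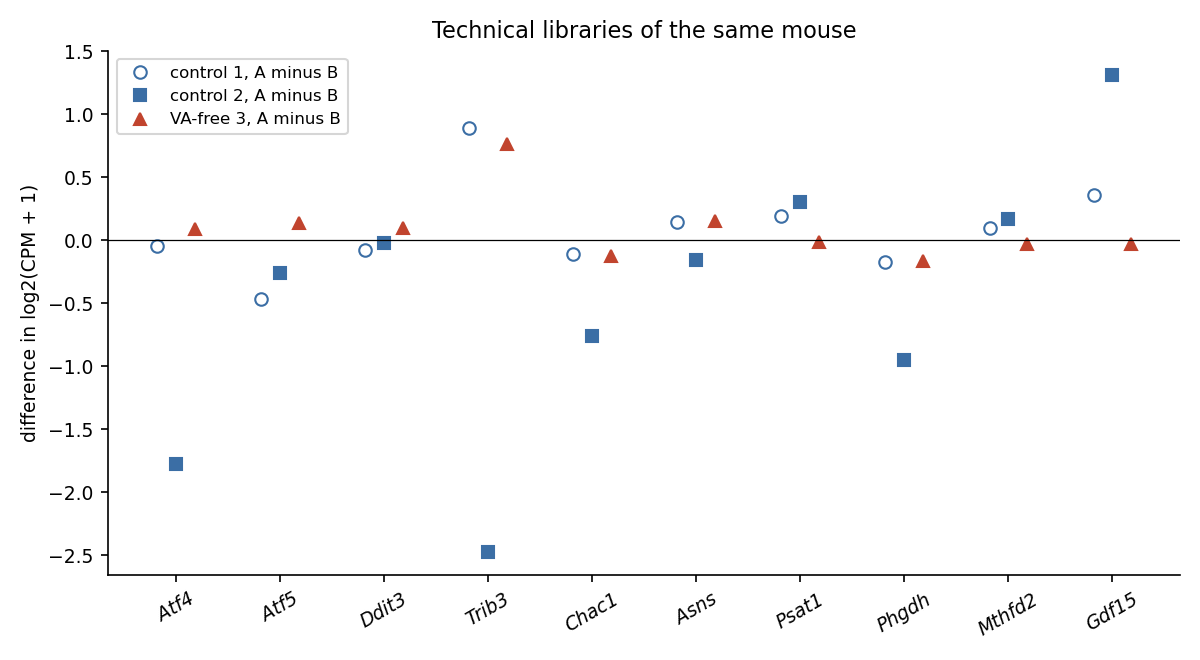
Difference in log2(CPM + 1) between technical replicates A and B of each mouse that has both, for each gene, with symbol and fill for the mouse. Control 2 has the widest gaps, with -2.47 for Trib3, -1.77 for Atf4 and 1.32 for Gdf15, while Asns and Ddit3 differ by 0.154 or less in either direction in all 3 mice.

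The serine and folate enzymes of the set did not follow Asns. Phgdh, the first enzyme of serine synthesis from glycolysis, was at 85.0 CPM in VA-free 1B, 82.7 in 2A, 94.2 in 3A and 106 in 3B. The control pairs had 71.1 and 80.1 CPM (1A and 1B) and 54.5 and 106 CPM (2A and 2B). Control 2B was as high as the highest VA-free library, and the other control libraries lay below all of them. The mean was 90.5 ± 9.82 CPM (SD, n = 3) against 78.5 ± 0.875 CPM (SD, n = 2), and the log2 fold change of 0.20 (SE 0.13) did not pass the test (edgeR adjusted p = 0.239). Phgdh was past the threshold and higher on the VA-free diet with the length trend removed, at 0.52 (edgeR adjusted p = 0.0189), and on the TPM scale, at 0.61 (limma adjusted p = 0.00485). Without control 2A it was -0.03 (edgeR adjusted p = 0.914).

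Psat1, the aminotransferase that acts after PHGDH, lay between 109 and 120 CPM in VA-free libraries and between 85.6 and 163 CPM in control libraries. Both control mice were outside the VA-free range on opposite sides, at 95.3 and 142 CPM, and the log2 fold change was -0.03 (SE 0.18, edgeR adjusted p = 0.921). Mthfd2, the mitochondrial enzyme that oxidizes methylene-tetrahydrofolate and a recurrent marker of mitochondrial stress, was at 11.8 to 14.9 CPM in VA-free libraries and 12.7 to 15.5 CPM in control libraries. Its log2 fold change was -0.05 (SE 0.17, edgeR adjusted p = 0.856), and the ranges overlapped. The protein-coding Mthfd2-201 carried 55.9% to 90.6% of its counts, and Mthfd2-206, annotated for nonsense-mediated decay, 4.61% to 38.4%. Both extremes of Mthfd2-206 were in technical replicates whose partners differed widely, 4.61% in VA-free 3B against 23.1% in 3A and 38.4% in control 1A against 5.99% in 1B.

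Gdf15, a circulating cytokine of the TGF-beta family that muscle and other tissues release under mitochondrial stress, was at 24.1 CPM in VA-free 1B, 26.6 in 2A, 32.3 in 3A and 33.0 in 3B. The control pairs had 43.9 and 33.98 CPM (1A and 1B) and 64.0 and 25.1 CPM (2A and 2B). Control 2B lay inside the VA-free range, while the other control libraries lay above it. The mean was 28.1 ± 4.45 CPM (SD, n = 3) against 41.3 ± 0.977 CPM (SD, n = 2), with a log2 fold change of -0.56 (SE 0.16, edgeR adjusted p = 0.0278). It was -0.23 without control 2A (edgeR adjusted p = 0.470) and -0.92 without control 2B (edgeR adjusted p = 0.0554), and the call was lost either way, as it was without control 1A, either control mouse, or VA-free mouse 1 or 2. Transcript Gdf15-202 carried 70.5% to 79.5% of its counts and Gdf15-201 20.5% to 29.5%, with overlap between the diets.

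**Figure D3:**
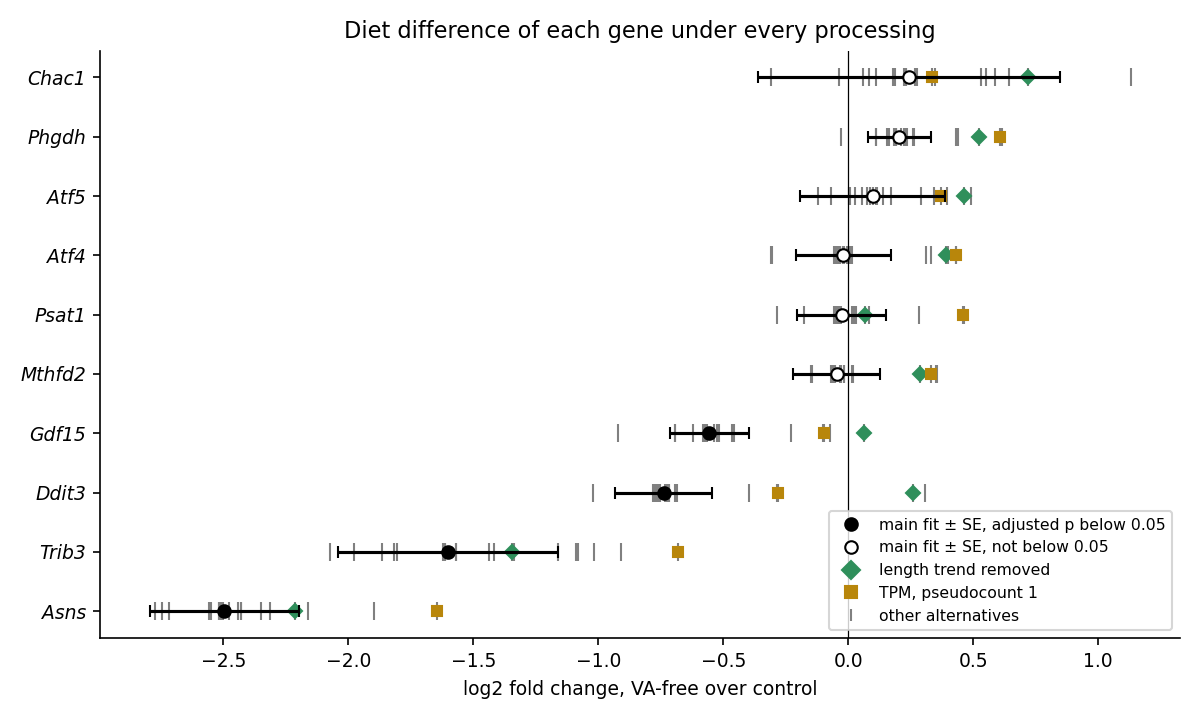
Log2 fold change (VA-free over control) of each gene with its SE, filled where edgeR's adjusted p is below 0.05, beside the values of the 20 alternatives as ticks, with the fit without the length trend (diamonds) and the TPM fit (squares) marked. Asns lies at -1.64 or below throughout, Trib3 at -0.68 or below, and Ddit3 and Gdf15 reach 0.26 and 0.06 once the length trend is removed.

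The falls were set beside those of genes of like transcript length. Over all tested genes, those with a mean transcript under 1000 bases had a median log2 fold change of -0.72 (n = 2298), those of 1000 to 1500 bases -0.60, those of 1500 to 2000 bases -0.28, those of 2000 to 3000 bases 0.03 and longer ones 0.43. Ddit3, with a mean transcript length of 853 bases and a log2 fold change of -0.74, lay at the median of its length class, and 38.1% of that class fell. Gdf15, at 1421 bases and -0.56, also lay at its class median, and 45.0% of that class fell. Asns at 1963 bases and Trib3 at 2026 bases lay far below the medians of theirs. With the length trend removed Asns was at -2.21 and called, and Trib3 at -1.35 with an edgeR adjusted p of 0.0528.

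**Figure D4:**
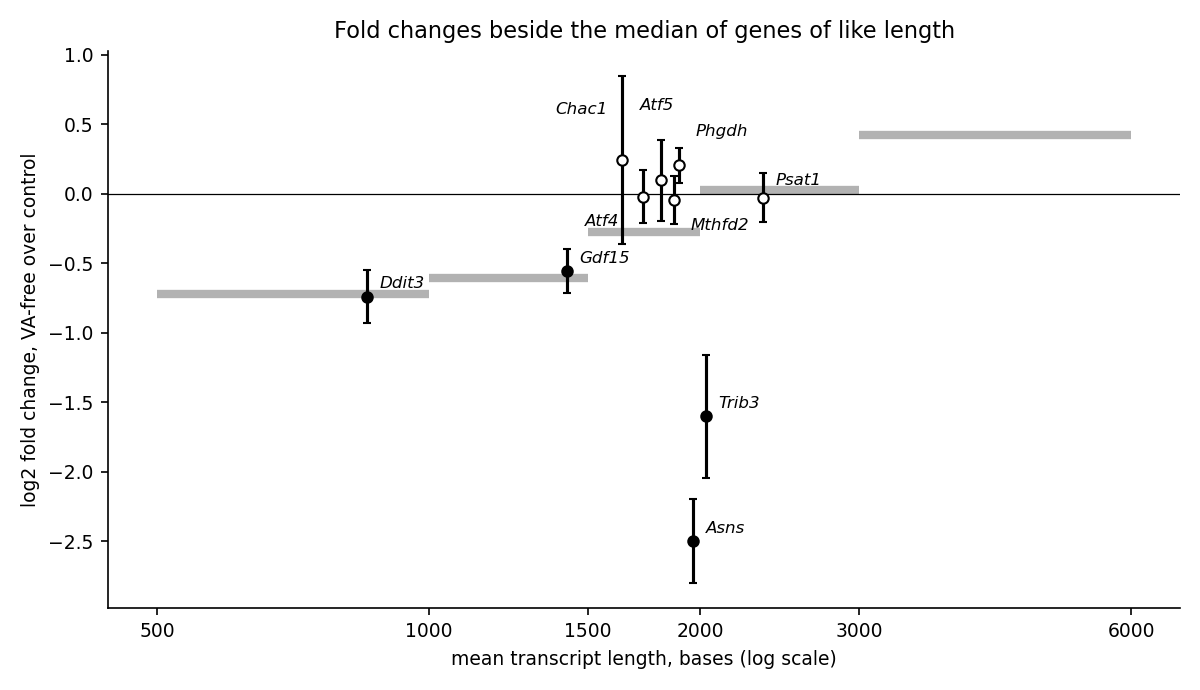
Log2 fold change of each gene with its SE against its mean transcript length (log scale), filled where edgeR's adjusted p is below 0.05, with grey bars at the median of all tested genes in 5 length classes (the outer classes are open and drawn to the ends of the axis). Ddit3 and Gdf15 sit on the bar of their class, and Asns and Trib3 sit below theirs.

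On the TPM scale, which divides counts by transcript length and so allows genes to be compared, the mean level over the 5 mice was 530 for Atf4, above 98.7% of tested genes. Psat1 at 88.8 TPM, Phgdh at 77.1 and Ddit3 at 62.3 followed, and their ranges over mice overlapped. Gdf15 came next at 38.8 TPM, with 34.3 to 43.3 over the mice and no overlap with Ddit3 or with Mthfd2. The lower end held Mthfd2 at 14.3, Asns at 6.80, Atf5 at 2.92, Trib3 at 1.71 and Chac1 at 1.06 TPM, where each neighbour overlapped the next. Asns spanned 2.54 to 13.6 TPM, wide enough to change its rank between the diets. The order of the mean levels of Ddit3 and Phgdh differed by diet too. They were 70.4 and 58.4 TPM in control mice and 56.9 and 89.7 TPM in VA-free mice. Only control mouse 1 had this control order, at 83.9 and 56.3 TPM. Control mouse 2, at 57.0 and 60.5 TPM, had the order of the VA-free mice.

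The genes whose levels over the 5 mice were most like those of Atf4 were Pcdh17, Zfp521, Elmo2, Pla2g15 and Nsf, out of 9558 genes whose mean reached 10 CPM. Likeness was the root mean square distance of centred log2(CPM + 1), and it was 0.0377 for Pcdh17 and 0.0517 for Nsf. Among the members it was 0.108 for Atf5 and 1.07 for Asns. The distance is not scaled by spread, which over the mice was 0.204 for Atf4 and 1.08 for Asns. A gene with a great fall is thus far from Atf4 by the way likeness is measured. The added 1 CPM also brings genes of few CPM, such as Atf5, closer. None of the members that reached 10 CPM (Ddit3, Psat1, Phgdh, Mthfd2 and Gdf15) was among the 5 genes, and Atf5, Trib3, Chac1 and Asns were below that level. Control 2A entered the level of control mouse 2 for all of these genes.

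Of 19 genes for eIF2, its kinases and phosphatase subunits and the mitochondrial relay, 5 rose and 5 fell, beside 18.9% higher and 22.5% lower over all tested genes, with a median log2 fold change of -0.20. On the TPM scale 7 rose and 2 fell with a median of 0.23. With the length trend removed 3 rose and 3 fell with a median of -0.02. Without control 2A 6 rose and 3 fell with a median of -0.11, and without control mouse 1 the median was -0.17. Ppp1r15b, which encodes the constitutive subunit that returns eIF2 alpha to its unphosphorylated state, rose from 163 ± 30.3 to 451 ± 54.6 CPM (log2 fold change 1.47, SE 0.17, edgeR adjusted p = 0.000898). Gcn1l1, the coactivator of the amino acid sensor GCN2, rose by 1.77 and Eif2s3x, an eIF2 subunit gene, by 0.55. Eif2s2, Eif2b1 and Eif2b3, which encode an eIF2 subunit and subunits of its exchange factor, had log2 fold changes of -0.52, -0.52 and -0.52. Ppp1r15a, the stress-induced counterpart of Ppp1r15b, was at 2284 ± 179 CPM against 2621 ± 504 CPM (edgeR adjusted p = 0.361). Eif2s1, which encodes eIF2 alpha, had a log2 fold change of -0.33 (edgeR adjusted p = 0.0750).

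The kinases of this list, named here for their role after their values had been seen, moved in different directions. Neither they nor the other genes named from the related lists were set beside genes of like length. Over all tested genes the median log2 fold change ran from -0.72 in the shortest length class to 0.43 in the longest. Eif2ak3, which encodes the endoplasmic reticulum kinase PERK, rose by 0.88 (edgeR adjusted p = 0.00421), and Eif2ak4, which encodes GCN2, rose by 1.22 (edgeR adjusted p = 0.00604). Eif2ak2, which encodes the double-stranded RNA sensor PKR, had a log2 fold change of -0.81 (edgeR adjusted p = 0.0114). The mitochondrial relay itself did not pass the test. Eif2ak1 was at 67.7 ± 2.00 CPM on the VA-free diet and 62.2 ± 8.79 CPM on the control diet, Oma1 at 16.3 ± 1.33 and 20.6 ± 3.27 CPM, and Dele1 at 15.8 ± 4.46 and 17.4 ± 4.36 CPM (edgeR adjusted p = 0.484, 0.154 and 0.728).

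Among 27 other ATF4 target genes 8 rose, 3 fell and 16 did not pass the test, with a median log2 fold change of 0.18. The share called in either direction was thus close to the 41.4% called over all tested genes. By direction the list leaned higher, since 18.9% of all tested genes were called higher and 22.5% lower. The amino acid transporter genes Slc38a2, at 1189 ± 112 against 479 ± 27.0 CPM (log2 fold change 1.31, edgeR adjusted p = 0.000603), and Slc7a5, at 358 ± 25.7 against 160 ± 16.5 CPM (1.16, edgeR adjusted p = 0.000803), rose while Asns fell. Of the other amino acid transporter genes in the list, some rose and some did not pass the test. Vldlr, a lipoprotein receptor gene, rose by 0.81. The members that fell were Nupr1, a stress-induced chromatin factor gene (-1.26, edgeR adjusted p = 0.000455), Eif4ebp1, which encodes a repressor of cap-dependent translation (-0.81), and Cebpg, which encodes a partner of ATF4 (-0.36). Atf3, at 1401 ± 107 against 1503 ± 659 CPM, and Cebpb, at 867 ± 255 against 766 ± 167 CPM, did not pass the test (edgeR adjusted p = 0.783 and 0.639). Without control 2A 6 of the 27 rose and 2 fell, with the length trend removed 6 rose and 1 fell, and on the TPM scale 12 rose and 2 fell with a median of 0.52.

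Of 12 cytosolic aminoacyl-tRNA synthetase genes, which charge tRNAs with amino acids and are common ATF4 targets, 4 rose and 0 fell, with a median of 0.26. Over all tested genes 18.9% were called higher and 22.5% lower. Aars rose by 0.75, Iars by 0.89 and Mars by 0.44 on the log2 scale. Eprs was at 346 ± 34.2 against 311 ± 32.8 CPM and Nars at 160 ± 20.8 against 164 ± 42.3 CPM, neither past the threshold. The count higher was 4 without control 2A, 1 without control 2B and 2 without any 1 of the VA-free mice. It was 5 with the length trend removed and 9 on the TPM scale with 1 lower. Without control mouse 2 the median was 0.25. Of the 17 other serine, glycine and one-carbon genes 5 rose and 3 fell, beside the same shares over all genes, with a median of -0.05. Mat2a, which makes the methyl donor S-adenosylmethionine, rose from 482 ± 89.3 to 773 ± 83.7 CPM, and Shmt1, a serine hydroxymethyltransferase gene, rose by 0.40. Sfxn1, the mitochondrial serine transporter gene, was at -0.55, Tyms, for thymidylate synthesis, at -0.96 and Slc25a32, the mitochondrial folate carrier gene, at -0.53, all lower. Mthfd1 and Shmt2, at 0.50 and 0.41, did not pass the test (edgeR adjusted p = 0.0753 and 0.0580). Without control 2A 4 genes of this list rose and 2 fell, and without control 2B 1 rose and 1 fell. With the length trend removed 4 rose and 3 fell with a median of 0.15, and on the TPM scale 8 rose and 1 fell with a median of 0.30.

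Among the 13 mitochondrial chaperone and protease genes, some of them targets of the mitochondrial unfolded protein response, 4 rose and 3 fell, with a median of -0.11. Over all tested genes 18.9% were called higher and 22.5% lower. Hspa9, for the mitochondrial HSP70, rose from 340 ± 7.95 to 509 ± 6.11 CPM (log2 fold change 0.58, edgeR adjusted p = 0.00531). Lonp1, for the matrix protease LON, rose by 0.60 and Afg3l2, for a subunit of the inner membrane m-AAA protease, by 0.74. Grpel1, Clpp and Hspe1, for an HSP70 exchange factor, a matrix protease and the small chaperonin, were lower at -0.79, -0.90 and -0.85. Hspd1, the large chaperonin partner of Hspe1, was at 204 ± 3.16 against 173 ± 1.12 CPM (edgeR adjusted p = 0.104), and Trap1 had a log2 fold change of -0.11 (edgeR adjusted p = 0.536). With the length trend removed 6 rose and 2 fell, with a median of 0.35, and on the TPM scale 6 rose and 2 fell, with a median of 0.38. Without control 2A 3 rose and 3 fell, and without control 2B 2 rose and 3 fell.

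Of 21 genes of the endoplasmic reticulum unfolded protein response, the neighbouring pathway that reaches ATF4 through PERK, 6 rose and 5 fell, with a median of 0.02. The shares over all tested genes were 18.9% higher and 22.5% lower. Sel1l, Edem1 and Atf6, for degradation of misfolded proteins and for a stress sensor, rose by 0.54, 0.72 and 1.02. Pdia6, Dnajb9 and Manf, for folding helpers and a secreted stress protein, were lower at -0.69, -0.60 and -1.01. Hspa5, which encodes the chaperone BiP, was at 2926 ± 338 against 3337 ± 103 CPM and did not pass the test (edgeR adjusted p = 0.328), nor did Pdia3 at -0.36 (edgeR adjusted p = 0.200). Without control 2A 6 rose and 4 fell, and without control 2B 1 rose and 3 fell. With the length trend removed 3 rose and 2 fell, and on the TPM scale 10 rose and 2 fell with a median of 0.48.

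**Figure D5:**
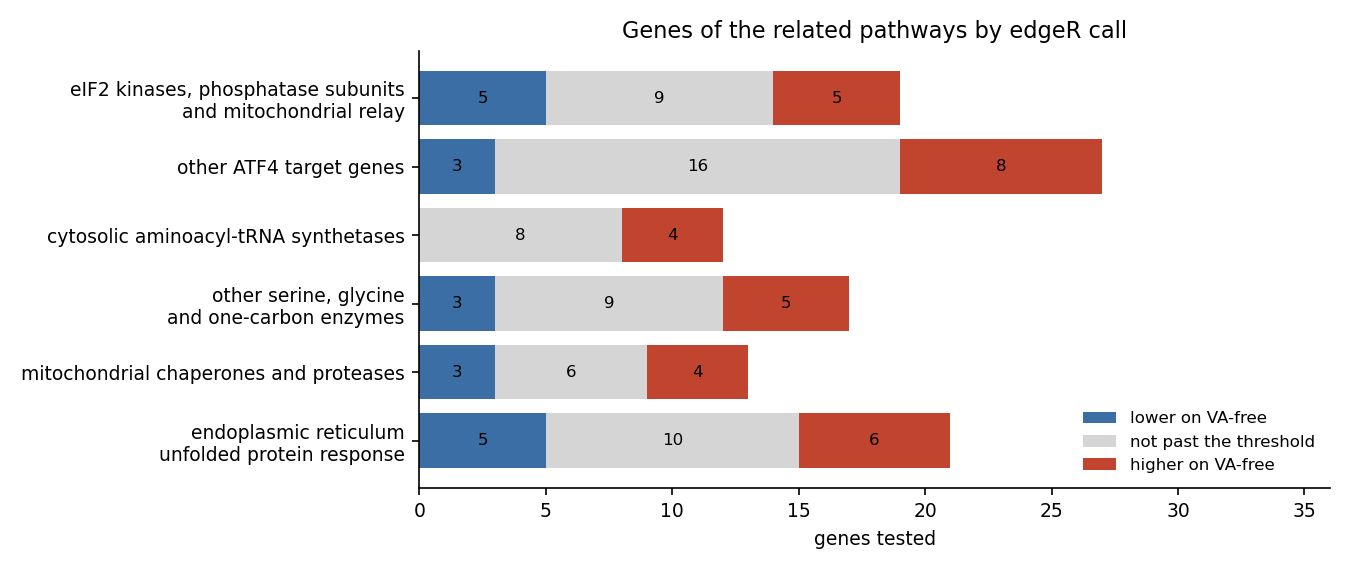
Number of tested genes of each related list that were lower, not past the threshold or higher on the VA-free diet by edgeR, as stacked bars from 0. Every list holds more genes that did not pass the test than genes that moved in either single direction, and only the aminoacyl-tRNA synthetases hold no gene that fell. Over all tested genes 18.9% were higher and 22.5% lower.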

How the data were processed

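RNA-Seq of sorted MuSCs from 5 mice in 8 libraries was used. The authors made estimated counts per transcript by pseudo-alignment with kallisto (0.46.2 in the submitters' processing notes, which also name FastQC) to GRCm38 transcripts and deposited them without normalization, beside TPM, which are scaled per length to a fixed total and keep no depth. Estimated counts were added per gene through the Ensembl annotation, summed over the libraries of each animal, then rounded. Counts on transcripts without a gene, 0.647% to 0.756% of a library, were left out. At 44831232 to 88650428 counts per library, counting error is small for the abundant members and larger for Trib3, Chac1, Atf5 and, on the VA-free diet, Asns.

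Tests between diets used edgeR (version 4.0.16, with R 4.3.3), namely TMM, its expression filter, the quasi-likelihood test and Benjamini-Hochberg adjustment over 17997 genes at a threshold of 0.05. An SE is the log2 fold change divided by the root of F. Levels are CPM with TMM factors, and means ± SD are over mice. Alternatives used DESeq2 1.42.0, limma 3.58.1 on log2(TPM + pseudocount of 1 or 0.1), other filters and scalings, length corrections, a replicate block, and each mouse or library left out. Scripts were tested on simulated data. The p-values measure spread between these mice only.

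The members and lists were chosen with earlier results of these data known. The text names all members, up to 3 abundant genes higher and 3 lower and 2 not past the threshold from each list, and the 5 genes most like Atf4. A gene that these choices would name is left out. Outside these choices, Eif2ak1, Eif2ak2, Eif2ak3, Eif2ak4, Oma1 and Dele1 were named for their role after their values had been seen. Promoter sequences are from RefSeq, and all 10 members had a window.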

Additional observations from a re-analysis of the deposited data

Results flagged for a closer look

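Atf4 in control 2A, at 193 CPM, lay far from the other control libraries, which were between 632 and 664 CPM. Its gap to the nearest of them was 0.931 of the range of the 4 libraries, above Dixon's critical value for groups of that size. It was the only such value in the 20 groups examined (10 genes in 2 diets). For independent values chance alone marks about 1 in 20 groups. These groups include technical pairs of a mouse, so neither that rate nor the critical value holds strictly here. Control 2B, from the same mouse, was at 664 CPM.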

How the results depend on the processing

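Asns was called in all 20 alternatives. Ddit3 was called in 11, Trib3 in 10 and Gdf15 in 9 of them. Of the 10 genes, 2 were called with the length trend removed (Phgdh higher, Asns lower), 2 on either TPM scale (1 higher, 1 lower), 2 with the replicate block and 1 with the replicate block and the length trend removed, the last of which called 3500 of all genes. Leaving out 1 mouse or library gave 1 to 4 members called and 4476 to 7744 genes called, the lowest without control 2B. Removing the length trend moved the median of all genes to 0.118, TPM to 0.192 (pseudocount 1) and 0.354 (0.1), and the share of calls that were higher from 45.6% to 55.9%, 68.7% and 69.0%. Signs turned to positive for Atf4 (0.0077 in DESeq2 with a length offset, 0.39 without the length trend, 0.40 also with the block, 0.43 and 0.43 in TPM), Psat1 (0.023, 0.067, 0.083, 0.46 and 0.46 in the same order), Mthfd2 (0.29 without the length trend, 0.016 with the replicate block, 0.35 with both, 0.33 and 0.35 in TPM), Ddit3 (0.26 without the length trend, 0.31 with the block too) and Gdf15 (0.064 without the length trend). The cause was not tested. Leaving out 1 mouse or library gave -0.31 to 0.33 for Atf4, -0.12 to 0.34 for Atf5, -0.31 to 1.13 for Chac1, -0.29 to 0.28 for Psat1, -0.027 to 0.43 for Phgdh and -0.15 to 0.018 for Mthfd2. Fits with a lone control mouse assume that it varies like the VA-free mice. Whether the replicate number pairs the animals is not known. Deviations from the diet mean correlated at -0.13 and -0.06 over 9559 genes in the 2 numbered pairs. With 2 control mice their deviations mirror each other, so these values cannot decide whether the animals were paired. Under the replicate block the calls of Ddit3 (edgeR adjusted p = 0.0782) and Trib3 (0.114) were lost. Depth limits Trib3 and Chac1 most, at 0 to 336 and 5 to 120 counts per library, and then Atf5 at 108 to 263.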
